A study of Mesocricetus auratus with 9 samples.

Results

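A group of 109 liver genes of the Syrian hamster (Mesocricetus auratus) had lower transcript levels in both sampled stages of hibernation than in summer. They were picked from the 17090 genes of the count table by their level in CPM, the read count of a gene per 1000000 counts of its library. A gene was taken when its mean over the 9 libraries was at least 1 CPM, when each of the 3 summer libraries lay above each of the 6 hibernating libraries, and when neither stage of hibernation had a mean above 57.143% of the summer mean. The fall from summer is therefore how these genes were found and is only described here. Counts of genes passing a test against summer are given further on, but nothing is read from them. What the choice did not use directly is the difference between the 2 hibernation stages, and that difference was tested. The choice did cap both stage means at the same share of summer. A gene that regained its summer level in arousal could therefore not enter the group.

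Hibernation is not one continuous sleep. A hibernator alternates between torpor lasting days, in which metabolism is suppressed and the body cools to near its surroundings, and short arousals in which it rewarms and many processes restart. The Syrian hamster is a facultative hibernator, which enters this cycle in response to its surroundings and not on a fixed yearly calendar. The liver supplies glucose, lipids and plasma proteins throughout, and in deep torpor the making of RNA and protein is slowed, so a transcript that is low in cold torpor can be back at its summer level or still low once the animal is warm.

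There were 3 animals per stage, with 1 library of polyadenylated liver RNA from each. Summer euthermic animals, outside hibernation, had a mouth temperature of 35.7 ± 0.5 °C. Torpor late animals had one of 9.0 ± 0.9 °C, and arousal early animals, roused by being handled once torpor had run for over 3 days, one of 35.0 ± 2.1 °C. The labels do not say what these spreads are. Both hibernating groups were kept in the dark up to sampling, and the labels do not give the lighting of the summer animals. The labels give no strain, sex, age or ambient temperature for any group.

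The libraries held between 29675688 counts (torpor late replicate 1) and 47565345 counts (arousal early replicate 1). The table identifies genes only by Ensembl identifier. It holds no names, and the reference gene table used here matched 0 of the 17090, so the functions of the 109 genes, pathway lists and liver marker genes were not analysed. Only 4 genes are singled out by identifier. No batch is named in the labels, but the libraries divide across the stages. Among genes reaching 10 CPM, 10 split the libraries by a gap of 10-fold or more, and 6 of these made the same split. It sets arousal early replicates 1 and 2, torpor late replicate 1 and replicate 2 of summer euthermic apart from the other 5 libraries. None of the 10 genes (0) is among the 109. In a piece of bulk liver, fewer cells of a type and less RNA per cell cannot be told apart, and CPM shows only a transcript's share of the library.

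The separation of summer from hibernation did most of the choosing at first, and the fold did the rest. Of the 17090 genes, 11077 reached a mean of 1 CPM. In 903 of these all summer libraries lay above all hibernating ones, and 109 of the 903 also met the fold in both stages. The opposite pattern, all summer libraries below all hibernating ones, was found for 764 genes, of which 122 met the same fold upwards. The edge of the group is not a natural break. In the members nearest the limit the higher of the 2 stage means was 57.142%, 57.1% and 56.9% of the summer mean, and in the closest genes left out it was 57.4%, 57.5% and 57.6%. With a fold within 5% of the limit there were 23 members and 20 genes left out. At the other limit, the lowest member had a mean of 1.09 CPM and the highest gene left out had 0.999 CPM.

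Most of the 109 genes were lowered moderately. The summer mean was a median of 2.19 times the mean of the 6 hibernating libraries, with quartiles of 1.95 and 2.78 and a range from 1.79 to 9.71. It was at least 2 times the mean of each stage for 58 genes. A small set fell much further, with 20 genes at 3 times or more, 9 at 4 times or more and 7 at 5 times or more. In torpor late the genes kept a median of 46.3% of their summer mean, with a range from 12.3% to 57.1%. In arousal early they kept a median of 43.9%, with a range from 6.54% to 56.0%. The upper end of both ranges is set by the choice of genes. Within that shared limit, which narrows how far the 2 could differ, the medians in the warm, newly aroused animals and in the cold, torpid ones lay close together.

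**Figure D1:**
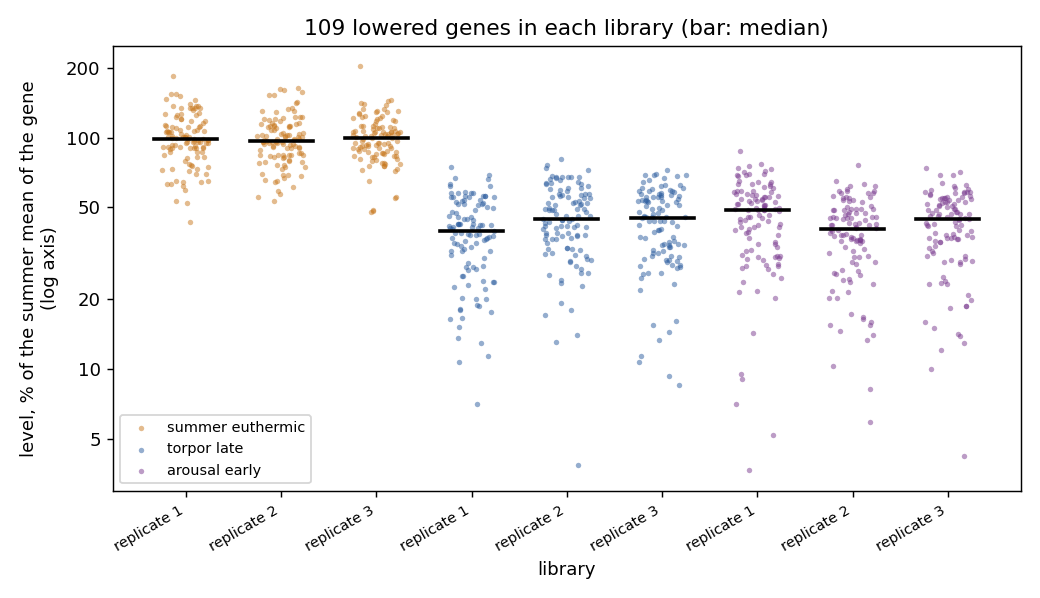
Level of each of the 109 lowered genes in each library, as a percentage of that gene's summer mean (log axis), with 1 point per gene and a bar at the median. The medians lie between 96.7% and 100.1% in the 3 summer euthermic libraries and between 39.3% and 48.6% in the 6 hibernating libraries, where torpor late and arousal early overlap.

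The hibernating libraries, each below summer for every gene by the choice, differed little from each other in how far below they were. The median level of the 109 genes was 39.3%, 44.8% and 44.9% of the summer mean in torpor late replicates 1, 2 and 3. In arousal early replicates 1, 2 and 3 it was 48.6%, 40.4% and 44.3%. The 2 stages overlap on this measure, with the highest and the second lowest of the 6 values both in arousal early. Arousal early replicate 1 was the least lowered library in the sense that it held the highest of the 6 hibernating levels for 31 genes, yet it also held the lowest for 16. Arousal early replicate 2 held the highest for 8 genes and the lowest for 26. Among the summer libraries, the lowest value fell in replicate 1 for 40 genes, in replicate 2 for 40 and in replicate 3 for 29, so no summer animal alone set the lower edge.

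The gap between summer and hibernation was narrow for many genes even though no library crossed it. The lowest summer library was a median of 1.28 times the highest hibernating library, with a range from 1.01 to 2.92. This ratio was under 1.1 for 19 genes, at least 1.5 for 23 genes and at least 2 for 4 genes. When the choice was repeated without 1 library at a time, between 92 and 103 of the 109 genes were chosen again, and 54 were chosen in all 9 repeats. The number chosen rose to 171 without arousal early replicate 1, and to 181 without summer euthermic replicate 2. These libraries most often kept other genes out.

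The group covers weakly and strongly read transcripts. The summer mean ranged from 1.62 to 3536 CPM with a median of 13.4 CPM. It was under 10 CPM for 46 genes, between 10 and 100 CPM for 44 and 100 CPM or more for 19. CPM is not scaled by transcript length, so these classes describe reads and not molecules. The summer-to-hibernation ratio had a median of 2.09 in the lowest class, 2.17 in the middle class and 2.95 in the highest class. This order can be partly built in. The classes are cut by the summer mean, which is also the numerator of the ratio. The minimum mean of 1 CPM also limits how far the weakest genes could fall and still be chosen. The fewest counts of any of the genes in any library were 9, and 52 in any summer library. Counting error alone is 33.3% at 9 counts, and 8.57% at 136 counts, which was the median over the genes of the lowest count.

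Together the 109 genes took a visible share of the liver library. In summer euthermic libraries they took 1.39%, 1.55% and 1.52% of all counts. In torpor late they took 0.518%, 0.754% and 0.672%, and in arousal early 0.548%, 0.452% and 0.576%. Summer euthermic animals had a mean of 1.49 ± 0.0865% (SD, n = 3). Torpor late animals had 0.648 ± 0.120% (SD, n = 3), and arousal early animals 0.525 ± 0.0652% (SD, n = 3). The hibernating groups overlap here as well. This sum rests on few genes, since 4 genes held 57.4% of the summer total and the 10 most read held 80.9%. Without those 10 the order of the hibernating stages turned, since torpor late then summed to 1033 ± 96.7 CPM and arousal early to 1126 ± 106 CPM, against a summer sum of 2847 ± 255 CPM (SD, n = 3 each). The difference between torpor late and arousal early was of the order of the spread between animals in that sum.

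The spread between animals of 1 stage was wider for the 109 genes than for the median liver gene. Their coefficient of variation (the SD as a share of the mean over 3 animals) had a median of 22.6% in summer euthermic, 23.0% in torpor late and 27.4% in arousal early. Over the 11077 genes with a mean of at least 1 CPM the medians were 11.3%, 13.9% and 12.5%. These values come from the libraries that chose the genes and are given as a description. For 4 of the 109 genes, 1 summer library was at least 2 times the next, so that their summer mean leaned on 1 animal.

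Counts of genes passing a test against summer are given for completeness, since the choice of genes used both contrasts. In the quasi-likelihood test of edgeR, at a Benjamini-Hochberg p-value under 0.05 over all 12780 genes tested, 33 of the 109 genes were called lower in torpor late, against 0.696% of all genes tested. In arousal early 53 were called lower, against 1.6% of all genes tested. Both comparisons called 26, against 0.415% of all genes tested, and neither called 49. DESeq2 called 93 in torpor late, against 4.17% of all genes tested, and 93 in arousal early, against 4.35%. The counts in torpor late fell to 1 without torpor late replicate 1, 13 without torpor late replicate 3, 19 without arousal early replicate 2, 8 without summer euthermic replicate 1, 8 without summer euthermic replicate 2 and 3 without summer euthermic replicate 3. Without torpor late replicate 2 the edgeR count was 0, while 104 of them had an unadjusted p-value under 0.05. In that fit 0% of all genes tested were called lower as well, with 17.6% at an unadjusted p-value under 0.05. In arousal early they fell to 28, 6 and 31 without arousal early replicates 1, 2 and 3, and to 25, 26 and 14 without summer euthermic replicates 1, 2 and 3. The share of all genes tested that was called lower fell in these fits too, to between 0% and 0.262% in torpor late and between 0.0693% and 0.916% in arousal early. Every one of the 109 genes passed the filter on low counts, so all entered these fits.

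The tested question is whether the lowered genes differed between cold torpor and warm early arousal. edgeR called no difference. The median log2 fold change of arousal early against torpor late was 0.02 over the 109 genes, with quartiles of -0.18 and 0.18, beside a median of -0.01 and quartiles of -0.17 and 0.15 over all 12780 genes tested. The fold change was above 0 for 57 of the 109 genes (52.3%), where 48% of all genes tested were above 0. By edgeR's quasi-likelihood test with adjustment over all genes, 0 of the 109 were called higher and 0 lower, as for all genes tested (0% called in each direction), and the smallest adjusted p-value among the 109 was 0.281. An unadjusted p-value under 0.05 was found for 10 of the 109 genes (9.17%), near the 7.48% of all genes tested. Without arousal early replicate 3 the number was 16 (14.7%), and the share of all genes tested rose with it to 12.6%. DESeq2 called 0 higher, against 0.469% of all genes tested, and 2 lower (1.83%), against 0.164%. By DESeq2, 14 of the 109 (12.8%) had an unadjusted p-value under 0.05, against 8.08% of all genes tested. These counts do not show that the stages were alike gene by gene, because 3 animals a stage leave wide errors. The shared cap on both stage means also limits how far a gene of the group could rise from torpor.

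**Figure D2:**
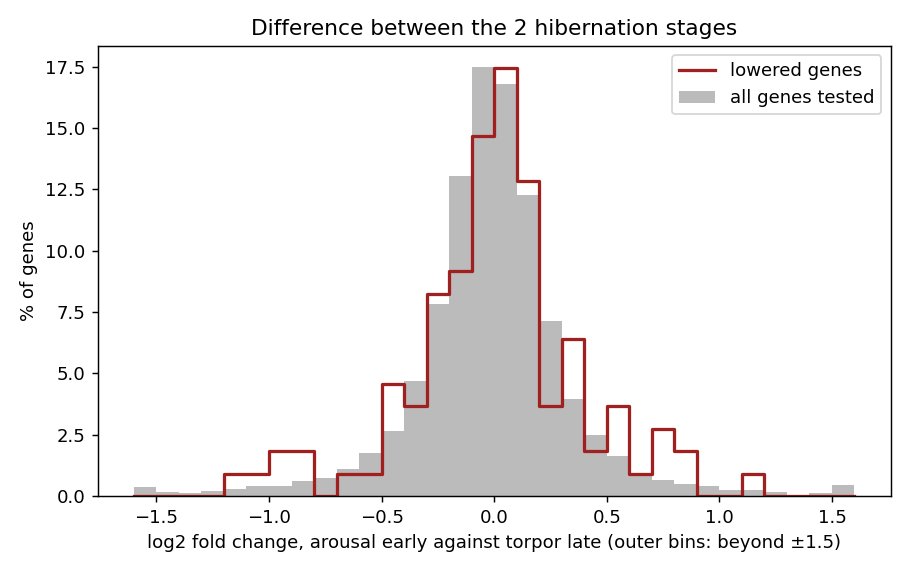
Distribution of the log2 fold change of arousal early against torpor late, in bins of 0.1, as the percentage of the 109 lowered genes (line) and of all 12780 genes tested (bars), with the outer bins holding all values beyond the axis. Both distributions are centred near 0, with medians of 0.02 and -0.01.

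Gene by gene, the stage means were within 1.2-fold of each other for 66 of the 109 genes (60.6%), beside 69.7% of all genes tested. Arousal early libraries lay wholly above torpor late libraries for 6 genes, or 5.5%, beside 4.48% of all genes tested. They lay wholly below for 5 genes, or 4.59%, beside 7.3% of all genes tested. These are differences of a few genes.

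At the edges, a few genes were farther apart in the 2 stages. The arousal early mean was at least 1.5 times the torpor late mean for 7 genes (6.42%, beside 3.87% of all genes tested), by 1.56 to 2.17 times. These 7 stood at 12.3% to 25.8% of the summer mean in torpor and at 21.0% to 42.3% in arousal. A low torpor level is built into this, because the limit on the arousal mean leaves such a ratio open only to genes at or under 38.1% of summer in torpor, which 35 of the 109 were. In 6 of the 7 the highest hibernating library was arousal early replicate 1, and without that library only 2 of the 7 still reached 1.5 times. Counted over all 109, the number of such genes was 5 without arousal early replicate 1. It was 11 without torpor late replicate 2 and 13 without arousal early replicate 3. In the other direction the torpor late mean was at least 1.5 times the arousal early mean for 8 genes (7.34%, beside 4.95% of all genes tested), by 1.502 to 2.15 times. Of these 8, 6 remained without arousal early replicate 1. Counted over all 109, the number of such genes was then 8. It was 13 without torpor late replicate 1 and 13 without arousal early replicate 3. What sets arousal early replicate 1 apart was not tested.

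**Figure D3:**
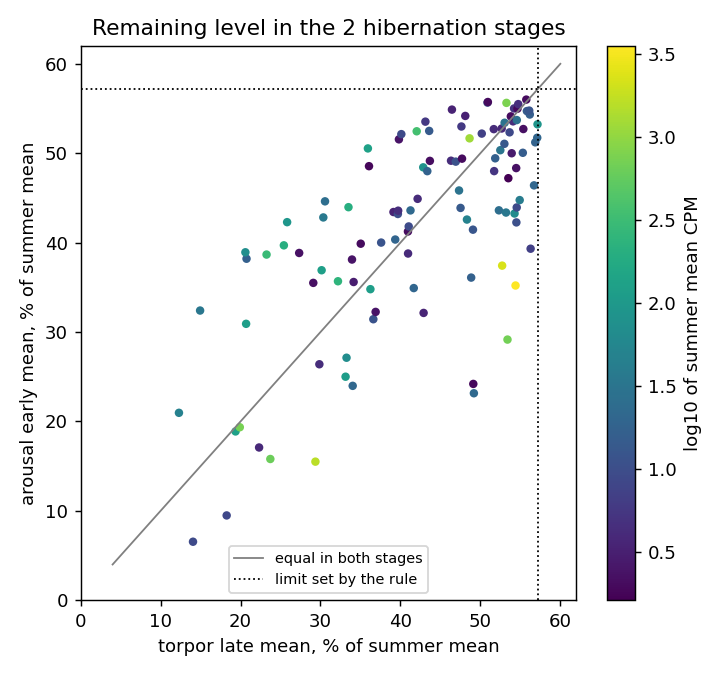
Remaining level of each of the 109 genes in torpor late (horizontal axis) and arousal early (vertical axis), both as a percentage of the gene's summer mean, coloured by the log10 of the summer mean in CPM. The dotted lines are the limits set by the choice of genes, the grey line marks equal levels, and 56 genes lie above it and 53 below.

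Among genes with a summer mean of at least 10 CPM, ENSMAUG00000002564 had the largest ratio of summer to hibernation. Its levels were 44.6, 59.8 and 35.1 CPM in summer euthermic replicates 1 to 3, and 5.32, 6.50 and 5.33 CPM in torpor late replicates 1 to 3. In arousal early they were 15.7, 6.54 and 6.97 CPM. All hibernating values were far under the lowest summer value, and the torpor late values were close together. The summer mean was 46.5 ± 12.5 CPM (SD, n = 3), 8.13 times that of torpor late and 4.77 times that of arousal early. The 3 arousal early libraries all lay above the torpor late ones, 2 of them by little. The log2 fold change between the 2 stages was 0.77 (SE 0.31, edgeR adjusted p = 0.647). It was 0.29 without arousal early replicate 1, and adjusted p-values over the 15 alternatives ran from 0.351 to 0.9999.

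ENSMAUG00000011787 came next in that ratio, but its fall leaned on 1 animal. The summer levels were 55.6, 68.2 and 261.7 CPM, so that replicate 3 was 3.83 times the next. The torpor late levels were 29.6, 31.3 and 13.8 CPM and the arousal early levels 11.6, 10.6 and 50.5 CPM. Arousal early replicate 3 came close to the lowest summer animal, at a ratio of 1.099, and the hibernating stages overlapped. The log2 fold change of arousal early against torpor late was 0.03 (SE 0.75, edgeR adjusted p = 0.996). Its sign turned without torpor late replicate 3, at -0.24, and without arousal early replicate 3, at -1.18, and adjusted p-values over the alternatives ran from 0.483 to 1.

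The fitted rise from torpor late to arousal early was largest, among genes with a summer mean of at least 10 CPM, in ENSMAUG00000010075. Its summer levels were 36.7, 29.2 and 35.9 CPM and its torpor late levels 3.64, 6.10 and 5.48 CPM. In arousal early they were 19.9, 8.36 and 4.72 CPM. Replicate 1 of arousal early was well above the other two, and replicate 3 was inside the torpor late range, so the stages overlapped. The gene kept 14.9% of its summer mean in torpor late and 32.4% in arousal early. The log2 fold change between those stages was 1.103 (SE 0.42, edgeR adjusted p = 0.634), with adjusted p-values from 0.273 to 0.9999 over the alternatives and a value of 0.39 without the library on which it leaned most, arousal early replicate 1.

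ENSMAUG00000008071 had the next largest fitted rise. The summer levels were 50.8, 79.5 and 77.5 CPM, and the torpor late levels were 8.96, 13.4 and 20.5 CPM. The arousal early levels, at 27.5, 45.0 and 8.35 CPM, were scattered over a wider range than in either other stage relative to their mean. Replicate 2 of arousal early came near the lowest summer value and replicate 3 was below all torpor late values. The log2 fold change between the hibernation stages was 0.89 (SE 0.50, edgeR adjusted p = 0.709), with adjusted p-values from 0.318 to 0.9999 over the alternatives. It ran from 0.31 without arousal early replicate 2 to 1.31 without arousal early replicate 3. Both this gene and ENSMAUG00000010075 were picked for this change, and neither rise passed the test. No gene was singled out for a fall between the stages. The smallest edgeR adjusted p-value among the 109, 0.281, belonged to a gene lower in arousal early, with a log2 fold change of -0.87 (SE 0.17). Of the 10 genes at an unadjusted edgeR p-value under 0.05, 5 were higher in arousal early and 5 lower.

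**Figure D4:**
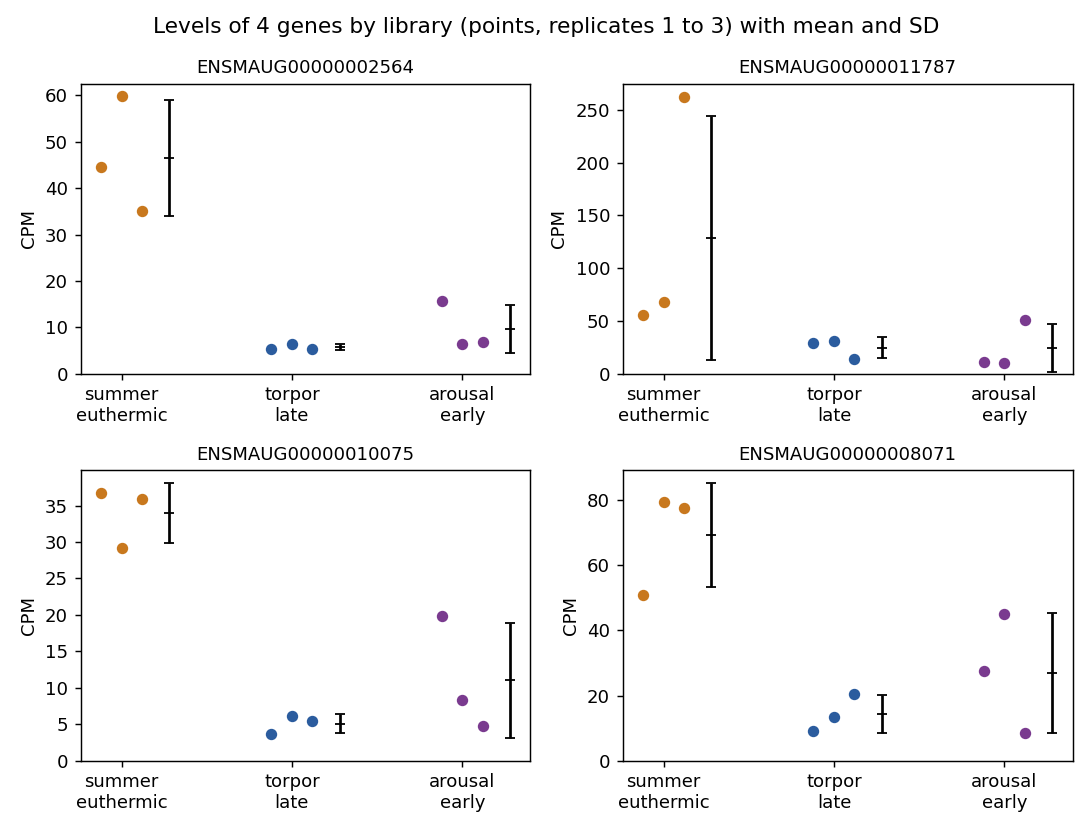
Levels in CPM (linear axes from 0) of the 4 genes in the 3 libraries of each stage (points, replicates 1 to 3 from left to right), with the mean and SD beside them. The summer points lie above every hibernating point in each panel, and the widest spread is in the summer levels of ENSMAUG00000011787, from 55.6 to 261.7 CPM.

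The 122 genes raised in both stages by the mirrored choice were set beside the lowered ones on the contrast between the hibernation stages. Neither choice used this contrast directly, but each limited both stage means, on opposite sides of summer. Their median log2 fold change of arousal early against torpor late was 0.10, with 78 of the 122 above 0 and 10 at an unadjusted p-value under 0.05. For the 109 lowered genes these values were 0.02, 57 (52.3%) and 10 (9.17%). Over all 12780 genes tested by edgeR the median was -0.01, with 48% above 0 and 7.48% at an unadjusted p-value under 0.05. Both sets were measured in the same libraries, and the difference between them was not tested.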

How the data were processed

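Liver RNA of 9 animals was sequenced as single-end reads of 75 bp from stranded poly(A) libraries made from 437 ng RNA each, per the labels' protocols. The authors deposited 1 table of raw read counts per Ensembl gene. STAR 2.7.0f is named in the submitters' processing notes. How reads were counted, with which strand setting, build and annotation, is not given in the sources used here, so reads may be shared by overlapping genes or near-identical copies. Each column was assigned to its animal through the sample title, and replicate numbers are names in accession order. The labels speak of separate animals.

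The genes and the rules for describing them were chosen with earlier results of these data known. Because no identifier had a symbol, at most 4 identifiers with a summer mean of at least 10 CPM are named, 2 by the ratio of summer to hibernating mean and 2 by the fitted rise from torpor late to arousal early. The 23 lists of pathway and marker genes by symbol were not used. CPM used the column total. Tests used R 4.3.3 and edgeR 4.0.16 (filterByExpr, TMM, glmQLFit and glmQLFTest, 1 coefficient per stage, all 9 libraries, Benjamini-Hochberg over 12780 genes), tested on simulated data. The simulation changed 200 of the 12780 genes in arousal early against torpor late. At 2-fold it recovered 51.5% of them with 6 false calls, and at 4-fold 89% with 9 false calls. The changed genes were drawn from all genes tested and not from the 109. The SE of a log2 fold change is its size divided by the square root of F. Alternatives were RLE scaling, DESeq2 1.42.0, other filters, fits of 2 stages, other limits of the rule and leaving out each library. A covariate for the division of the libraries was added after seeing the data.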

Additional observations from a re-analysis of the deposited data

How the results depend on the processing

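The number of genes chosen moved with the limits of the rule. It was 67 with a mean of at least 5 CPM, 238 with no minimum, 237 at a fold of 1.5 and 58 at a fold of 2, and TMM-scaled CPM gave 107, of which 102 were among the 109. Leaving out each library in turn gave 102 to 181. Between arousal early and torpor late, edgeR called 0 genes of the 109 higher and 0 lower under each alternative run. DESeq2 called 2 lower (1.83%), against 0.164% of all genes tested. The number with an unadjusted p-value under 0.05, which was 10 with all libraries, ran from 7 to 16 when each library was left out, while the share of all genes tested ran from 4.28% to 12.6%. The median log2 fold change ran from -0.07 to 0.08. DESeq2 called 93 of the 109 genes lower than in summer in torpor late and 93 in arousal early. The shares of all genes tested were 4.17% and 4.35%. The added covariate gave 50 in torpor late, against 1.66% of all genes tested, and 47 in arousal early, against 1.59%. When each library was left out, edgeR called 0 to 46 in torpor late and 6 to 45 in arousal early. The share of all genes tested then ran from 0% to 1.44% in torpor late and from 0.0693% to 1.42% in arousal early. The log2 fold change of ENSMAUG00000011787 between the hibernation stages changed sign with the covariate, at -0.072, and ran from -1.18 to 0.40 when each library was left out. The other 3 named genes kept their direction and stayed short of the threshold under all 15 alternatives. The cause of these shifts was not tested. No paired analysis was run, because the labels speak of separate animals and give no link between animals of different stages. Depth limits the weakest genes, where the lowest count of 9 carries a counting error of 33.3%.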
